A study of Mus musculus with 32 samples.

Results

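Spinal cord transcripts of 32 ependymal motile cilia genes were followed across all 32 mice of the series. The genes were taken by name, with a rule that used no measured value, although earlier results of these data were known when they were chosen. All 32 were found among the 42524 genes of the count table through their Ensembl identifiers (Dnai1 and Dnai2 stand in the reference as Dnaic1 and Dnaic2). The mice were C57BL/6J animals that either carried the mutant human SOD1 G93A transgene, driven by its own human promoter (G93A), or were wild type littermates (WT). Both genotypes were left untreated or drank water with the nitrone OKN-007, and the cord was sampled at 90 or 155 days according to the labels, although the study's text puts the younger mice a few days older. Each of the 8 groups held 4 mice. No dose is given in the labels. In the study's text, the cohorts sampled at these ages belonged to its higher dose arm, in which only females were used. RNA came from pieces of whole spinal cord, so that fewer ependymal cells and less RNA per ependymal cell cannot be told apart. The human transgene was not analysed here.

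Ependymal cells line the central canal of the spinal cord and the ventricles of the brain, and carry motile cilia that beat and move cerebrospinal fluid. A motile cilium is built on an axoneme of microtubule doublets. Outer and inner dynein arms drive the beat, the nexin-dynein regulatory complex and radial spokes control it, and the central apparatus gives it its plane. Microtubule inner proteins line the doublets. The forkhead factor Foxj1 and the RFX factors switch on the genes for these parts.

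Promoter windows from RefSeq on GRCm38.p6, each reaching from 250 bases before to 50 bases after a transcription start, were at hand for 26 of the 32 genes in 30 windows. The motifs searched, on both strands, were the X-box bound by RFX factors, its arm GTTGCC, which may lie inside an X-box, and the forkhead core GTAAACA. An X-box was found in 16.7% of the member windows and in 0.962% of all 32851 windows. The arm was found in 43.3% of member windows and 12.5% of all windows. The forkhead core was in 6.67% of member windows and 3.65% of all windows. These matches describe letters only and do not show that a factor binds. The windows below are shown because their genes differ in the direction of their change in 155-day G93A mice, with Dnai2 and Cfap126 higher and Dnah6 and Ak7 lower, and because Lrrc23 holds an X-box. Capitals mark every match, 5′ to 3′ on the strand of the gene. The windows lie on GRCm38.p6 at chr11:114727169-114727468 (Dnai2, plus strand), chr1:171113736-171114035 (Cfap126, plus strand, the most upstream of 3 annotated starts), chr6:73221582-73221881 (Dnah6, minus strand), chr12:105705732-105706031 (Ak7, plus strand) and chr6:124779678-124779977 (Lrrc23, minus strand).
Dnai2: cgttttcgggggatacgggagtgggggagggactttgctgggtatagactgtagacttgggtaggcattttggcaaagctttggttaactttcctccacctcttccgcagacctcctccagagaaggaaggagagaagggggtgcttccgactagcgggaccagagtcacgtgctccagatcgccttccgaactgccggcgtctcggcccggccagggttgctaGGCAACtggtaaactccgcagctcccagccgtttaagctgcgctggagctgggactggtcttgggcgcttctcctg
Cfap126: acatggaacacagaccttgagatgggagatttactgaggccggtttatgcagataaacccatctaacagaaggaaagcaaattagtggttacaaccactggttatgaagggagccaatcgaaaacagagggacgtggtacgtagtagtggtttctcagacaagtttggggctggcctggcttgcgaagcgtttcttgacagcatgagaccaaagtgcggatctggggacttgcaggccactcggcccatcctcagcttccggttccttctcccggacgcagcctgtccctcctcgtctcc
Dnah6: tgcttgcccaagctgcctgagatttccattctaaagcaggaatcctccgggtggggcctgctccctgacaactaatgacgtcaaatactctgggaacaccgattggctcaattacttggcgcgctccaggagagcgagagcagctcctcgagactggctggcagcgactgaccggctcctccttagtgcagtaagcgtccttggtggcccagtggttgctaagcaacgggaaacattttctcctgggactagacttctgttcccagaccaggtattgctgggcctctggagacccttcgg
Ak7: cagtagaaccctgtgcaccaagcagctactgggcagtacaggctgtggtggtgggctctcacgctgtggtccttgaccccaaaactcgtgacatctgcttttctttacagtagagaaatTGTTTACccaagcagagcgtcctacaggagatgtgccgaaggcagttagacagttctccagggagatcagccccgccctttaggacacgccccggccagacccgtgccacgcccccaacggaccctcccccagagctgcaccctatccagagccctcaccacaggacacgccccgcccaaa
Lrrc23: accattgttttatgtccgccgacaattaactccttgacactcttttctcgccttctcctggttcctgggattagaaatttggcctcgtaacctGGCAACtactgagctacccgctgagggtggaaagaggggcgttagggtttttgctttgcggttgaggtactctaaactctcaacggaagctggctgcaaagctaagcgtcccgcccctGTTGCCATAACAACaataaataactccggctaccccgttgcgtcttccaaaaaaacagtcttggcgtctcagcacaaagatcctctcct

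The arm in Dnai2 began 26 bases before the start. The forkhead core in Ak7 began 131 bases before it, and the X-box in Lrrc23 39 bases before it. No match to these 3 patterns was found in the windows of Cfap126 and Dnah6 shown here. The Dnah6 window does hold gttgctaagcaac, and the Dnai2 window gttgctaGGCAAC, which the fixed X-box pattern did not match. Apart from Lrrc23, the rising and the falling genes shown each included 1 with and 1 without a match to these patterns.

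Sequencing depth ran from 19701722 to 30138257 counted reads per mouse, and 3 counts in the smallest library equal 0.152 CPM, the count of a gene per 1000000 reads counted. CPM values below are scaled with TMM factors, which adjust for the composition of each library. Identical libraries were not found. Defining neuron markers were present in every mouse, at a summed 1369 to 3172 CPM, and so were astrocyte markers, at 4551 to 17190 CPM. Ependymal genes listed as non-ciliary summed to 206 to 399 CPM. Choroid plexus epithelium also bears motile cilia, and its 10 markers summed to 6.74 to 31.8 CPM, with 7 of them at a median under 1 CPM. A few libraries stood apart. Schwann cell markers were highest in untreated WT mouse 3 at 90 days (mean log2 CPM 6.02), and Alb, a liver transcript, was highest in untreated G93A mouse 12 (139 CPM) and OKN-007 G93A mouse 15 (83.8 CPM) at 155 days. Hox genes of the lumbar and sacral cord also varied between mice and groups, as given below.

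Most of the genes were low transcripts, and their order per length of exon ran over a wide range. Tppp3, a tubulin polymerisation promoting protein, stood far above the rest with 210 CPM per kb of exon. Foxj1 followed with 16.1 CPM per kb, then the radial spoke gene Rsph1 with 8.87, the dynein light chain gene Dynlrb2 with 8.22 and the regulatory complex gene Ccdc153 with 5.85 CPM per kb. At the lower end, Dnah11 and Hydin had 0.176 and 0.166 CPM per kb and Spag17 0.101 CPM per kb. Mia had 0 to 14 counts per mouse and did not pass the filter on low counts, so that 31 of the 32 genes were tested at each age. Some transcripts share bases with a neighbour: Spag17 overlaps Wdr3 over 820 exonic bases on the opposite strand (Wdr3 mean 29.0 CPM), Dnah11 overlaps Cdca7l over 642 bases (1.29 CPM), and Dnai1 overlaps Enho over 15 bases (97.3 CPM). Whether the counting used strand is not given in the sources used here, so reads of these pairs may be mixed.

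**Figure D1:**
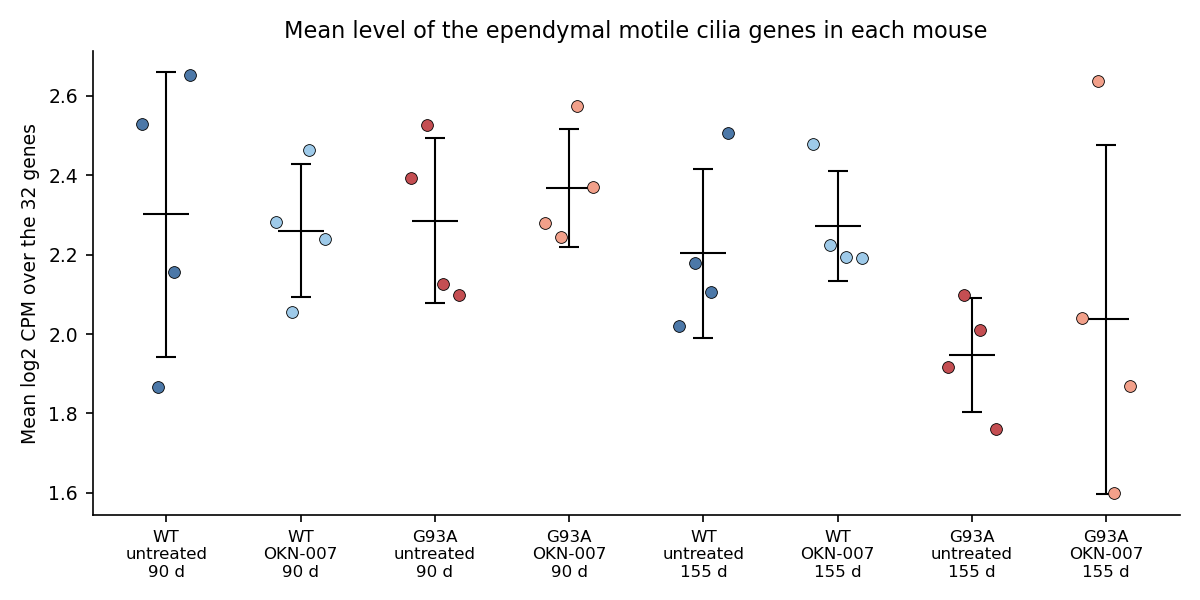
Mean log2 CPM over the 32 genes (vertical axis, not starting at 0) in each mouse of the 8 groups. Points are mice, horizontal bars the group mean and whiskers 1 SD (n = 4). The untreated G93A mice at 155 days lie between 1.76 and 2.10, and the OKN-007 G93A mice at 155 days spread from 1.60 to 2.64.

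The mean log2 CPM over the 32 genes gives a view of all genes at once. At 90 days it was 2.30 ± 0.36 in untreated WT, 2.26 ± 0.17 in OKN-007 WT, 2.29 ± 0.21 in untreated G93A and 2.37 ± 0.15 in OKN-007 G93A mice (SD, n = 4). At 155 days it was 2.20 ± 0.21 in untreated WT and 2.27 ± 0.14 in OKN-007 WT mice. In G93A mice of 155 days it was 1.95 ± 0.14 when untreated and 2.04 ± 0.44 with OKN-007. Within an age the groups overlapped, except that all 4 untreated G93A mice at 155 days were below all 4 OKN-007 WT mice. Mouse 14 of the OKN-007 G93A group had the highest mean of its age (2.64), and mouse 15 of the same group the lowest of all (1.60). No test was made on the mean, since its genes were chosen together.

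The genotype comparison at 155 days asks how the axoneme genes stand late in the disease. In untreated mice 3 genes were higher in G93A (Dnai2, Cfap126 and Foxj1) and 5 were lower (Dnah6, Ak7, Rsph4a, Dnah5 and Dnah9), by edgeR's quasi-likelihood test with a Benjamini-Hochberg adjusted p under 0.05. These counts stand against a background of 21.3% higher and 18.2% lower among all 18675 genes tested, and both member counts lie below those shares of 31 genes. The direction leaned to lower in untreated mice: 25 of 31 log2 fold changes were negative, with a median of -0.31, while the median of all genes was 0.00. With OKN-007 19 of the 31 were negative, and with the treatments averaged 20. The genes vary together from mouse to mouse, so these signs are not independent. The share of all genes with a negative change is not given here. With OKN-007, 4 genes were higher (Dnai2, Cfap126, Foxj1 and Efhb) and 3 lower (Hydin, Dnah6 and Dnah9), against backgrounds of 23.3% and 18.2%, and the median was -0.27 (all genes 0.02). With the treatments averaged, 3 were higher and 10 lower, against backgrounds of 28.8% and 25.8%, and the median was -0.25.

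**Figure D2:**
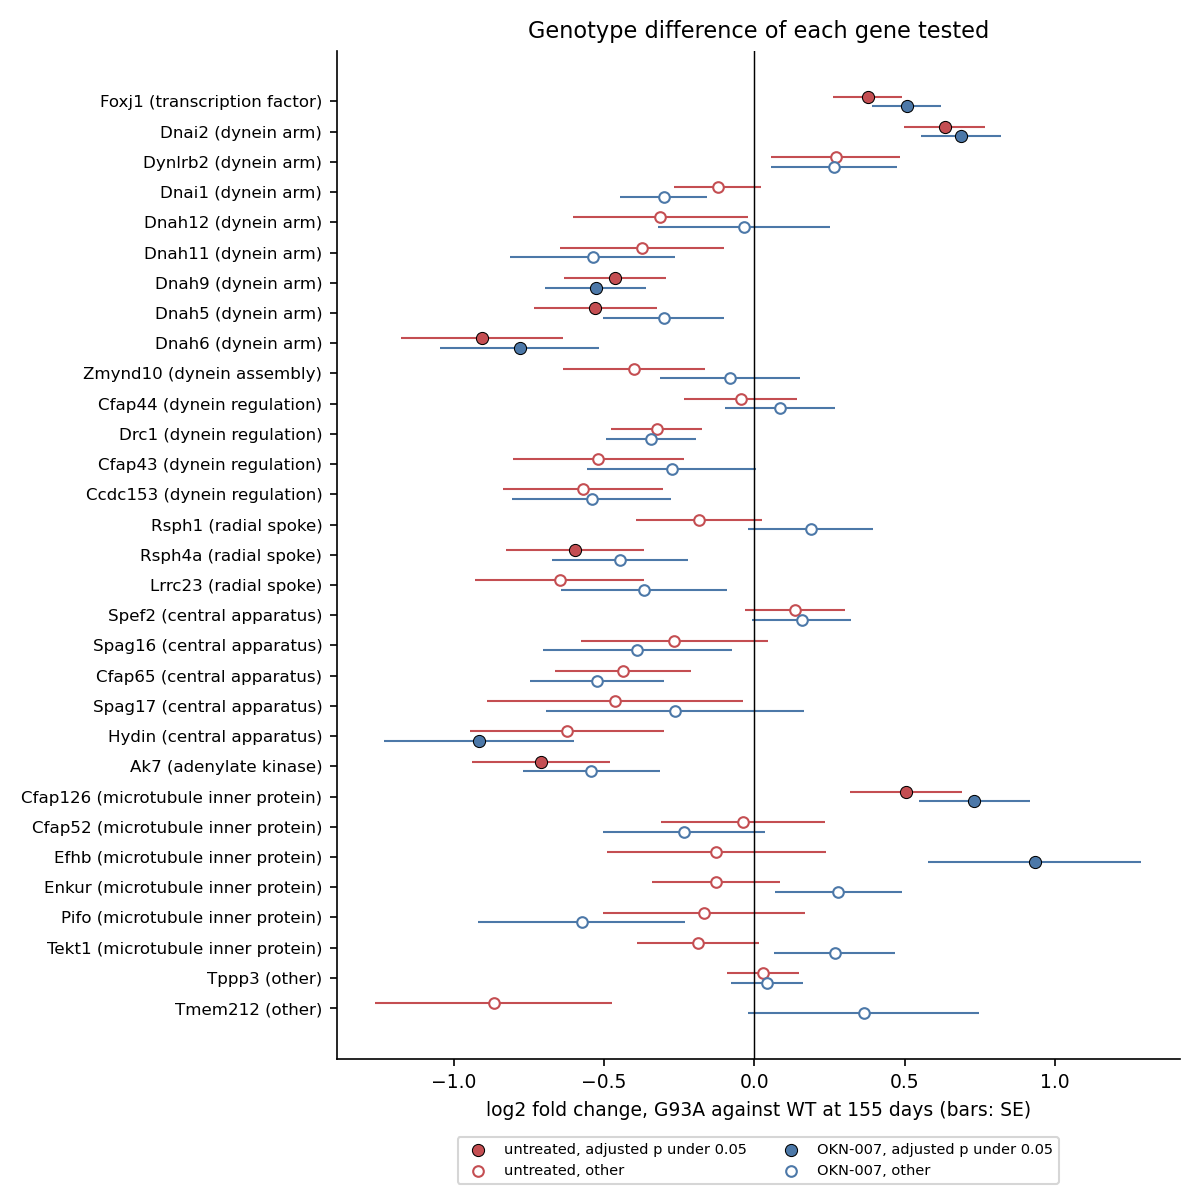
Log2 fold change of G93A against WT at 155 days for the 31 genes tested (horizontal axis), by role of the gene, in untreated (red) and OKN-007 (blue) mice. Bars are standard errors, and filled points have an adjusted p under 0.05. Dnai2, Cfap126 and Foxj1 lie to the right of 0 in both treatments, and Dnah6 and Dnah9 lie to the left in both.

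Foxj1, the master factor of the motile cilium, was at 41.1, 41.3, 45.6 and 35.4 CPM in untreated WT and at 44.9, 64.9, 53.3 and 42.9 CPM in untreated G93A mice of 155 days. With OKN-007 it was at 36.7, 42.4, 35.0 and 41.2 CPM in WT and at 56.7, 59.2, 46.7 and 46.8 CPM in G93A mice. The untreated groups overlapped in a narrow range, whereas all 4 OKN-007 G93A mice were above the WT mice. Foxj1 rose by 0.38 ± 0.11 on the log2 scale in untreated mice (SE, adjusted p = 0.0129) and by 0.51 ± 0.11 with OKN-007 (adjusted p = 0.00147). Its change had the opposite sign to the median of the 31 genes.

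Of the 8 dynein arm genes tested, 1 was higher and 3 were lower in untreated mice, and 1 was higher and 2 lower with OKN-007, against the 21.3% and 18.2%, and then 23.3% and 18.2%, of all genes. Dnai2 encodes an intermediate chain of the outer arm, and its values were 9.09, 8.94, 11.7 and 10.9 CPM in untreated WT against 14.4, 18.8, 12.7 and 15.2 CPM in untreated G93A mice. With OKN-007 the values were 11.3, 10.2, 10.5 and 9.35 CPM in WT and 16.3, 19.5, 12.7 and 14.9 CPM in G93A mice. The genotypes did not overlap in either treatment. Dnai2 rose by 0.63 ± 0.13 on the log2 scale when untreated (adjusted p = 0.000977) and by 0.69 ± 0.13 with OKN-007 (adjusted p = 0.000401), the smallest adjusted p of the 31 genes in both comparisons.

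The dynein arm genes that were lower were heavy chain genes, with Dnah6, Dnah9 and Dnah5 passing in untreated mice, Dnah6 and Dnah9 with OKN-007, and Dnah11 and Dnah12 in neither. Dnah6, an inner arm heavy chain, was at 3.27, 4.64, 3.498 and 5.20 CPM in untreated WT and at 2.84, 2.47, 1.63 and 1.66 CPM in untreated G93A mice, with no overlap. Its log2 change was -0.91 ± 0.27 (adjusted p = 0.0120). With OKN-007, Dnah6 was at 5.65, 4.33, 3.75 and 4.82 CPM in WT and at 1.95, 4.35, 1.71 and 2.27 CPM in G93A mice, where mouse 14 reached the WT range. The log2 change there was -0.78 ± 0.26 (adjusted p = 0.0234).

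Dnah9, a heavy chain of the outer arm, was at 5.48, 7.07, 4.86 and 7.65 CPM in untreated WT and at 4.83, 4.86, 3.62 and 4.33 CPM in untreated G93A mice. With OKN-007 it was at 6.96, 7.40, 6.82 and 7.19 CPM in WT and at 4.61, 6.22, 3.68 and 4.18 CPM in G93A mice. The genotypes did not overlap in either treatment, and in untreated mice the margin was below the rounding of these values. Dnah9 changed by -0.46 ± 0.17 on the log2 scale when untreated (adjusted p = 0.0367) and by -0.53 ± 0.17 with OKN-007 (adjusted p = 0.0162). Dnah5, another outer arm heavy chain of this list, was at 4.91, 3.58, 4.86 and 5.30 CPM in untreated WT and at 2.96, 4.07, 2.97 and 2.57 CPM in untreated G93A mice. Mouse 10 of the G93A group was within the WT range. The log2 change was -0.53 ± 0.20 (adjusted p = 0.0460), and with OKN-007 it was -0.30 ± 0.20 (adjusted p = 0.249).

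The remaining dynein genes did not pass the test. Dnai1, the partner of Dnai2 in the outer arm, was at 5.86, 6.51, 4.43 and 7.68 CPM in untreated WT and at 4.86, 6.63, 5.69 and 4.75 CPM in untreated G93A mice, a log2 change of -0.12 ± 0.15 (adjusted p = 0.539). With OKN-007 it was at 6.85, 6.32, 6.71 and 6.90 CPM in WT and at 5.05, 5.46, 5.03 and 5.10 CPM in G93A mice, and although these groups did not overlap the log2 change of -0.30 ± 0.14 did not pass (adjusted p = 0.104). Dnah11, Dnah12 and Dynlrb2 had untreated log2 changes of -0.37, -0.31 and 0.27. Zmynd10, which helps to assemble dynein arms in the cytoplasm, had 1.94, 1.75, 2.22 and 2.55 CPM in untreated WT and 1.496, 1.52, 1.38 and 1.79 CPM in untreated G93A mice. These ranges overlapped at mouse 12, and the log2 change was -0.40 ± 0.24 (adjusted p = 0.191).

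Of the 3 radial spoke genes, 1 was lower in untreated mice and 0 passed with OKN-007, against 18.2% of all genes lower in each. With the treatments averaged, 2 of the 3 were lower, against 25.8% of all genes. Rsph4a, a protein of the spoke head, was at 4.95, 4.34, 6.37 and 5.85 CPM in untreated WT and at 3.33, 3.66, 3.86 and 2.96 CPM in untreated G93A mice, without overlap. Its log2 change was -0.60 ± 0.23 (adjusted p = 0.0459). With OKN-007 the WT mice were at 7.12, 5.07, 4.95 and 4.89 CPM and the G93A mice at 2.46, 6.40, 3.29 and 3.23 CPM, where only mouse 14 overlapped, and the change of -0.45 ± 0.23 did not pass (adjusted p = 0.124). Lrrc23, also a spoke protein, was at 4.53, 7.03, 5.95 and 9.87 CPM in untreated WT and at 3.70, 6.17, 3.29 and 3.87 CPM in untreated G93A mice. The groups overlapped and the log2 change was -0.65 ± 0.28 (adjusted p = 0.0763). Rsph1, at 9.28, 12.8, 10.5 and 13.5 CPM in untreated WT and 9.84, 11.9, 9.55 and 8.26 CPM in untreated G93A mice, had a log2 change of -0.18 ± 0.21 (adjusted p = 0.517).

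In the regulatory complex and the tethers of the inner arm, 0 of 4 genes passed in either treatment. Of all genes 21.3% and 23.3% were higher, and 18.2% lower in each treatment. With the treatments averaged, 2 of the 4 were lower, against 25.8% of all genes. Ccdc153 was at 7.99, 16.8, 10.5 and 14.4 CPM in untreated WT and at 8.75, 9.43, 7.48 and 6.83 CPM in untreated G93A mice, with a log2 change of -0.57 ± 0.27 (adjusted p = 0.0974). Drc1, which founds the regulatory complex, was at 10.4, 9.79, 10.5 and 12.6 CPM in untreated WT and at 9.50, 7.33, 7.48 and 8.98 CPM in untreated G93A mice. The groups of Drc1 did not overlap, yet its log2 change of -0.33 ± 0.15 had an adjusted p of 0.0984. Cfap43 and Cfap44 had untreated log2 changes of -0.52 and -0.05.

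Among the central apparatus genes and Ak7, an adenylate kinase of the axoneme, 1 of 6 was lower in each treatment (Ak7 in untreated and Hydin in OKN-007 mice), which is near the 18.2% of all genes in both. With the treatments averaged, 3 of the 6 were lower, against 25.8% of all genes. Ak7 was at 10.9, 12.4, 14.1 and 18.7 CPM in untreated WT and at 8.31, 9.88, 7.36 and 7.81 CPM in untreated G93A mice, with no overlap and a log2 change of -0.71 ± 0.23 (adjusted p = 0.0198). With OKN-007 Ak7 was at 16.3, 15.6, 14.6 and 12.98 CPM in WT and at 7.95, 16.4, 5.65 and 8.92 CPM in G93A mice. Here mouse 14 was the highest of the 8, and the change of -0.54 ± 0.23 did not pass (adjusted p = 0.0643). Hydin, a central pair projection protein, was at 5.19, 4.11, 3.37 and 3.99 CPM in OKN-007 WT and at 1.65, 4.10, 1.51 and 1.12 CPM in OKN-007 G93A mice, a log2 change of -0.92 ± 0.32 (adjusted p = 0.0259). Again only mouse 14 reached the WT range. In untreated mice Hydin was at 3.01, 2.90, 2.76 and 4.22 CPM in WT and at 2.88, 1.32, 1.67 and 2.18 CPM in G93A, and its change of -0.62 ± 0.32 did not pass (adjusted p = 0.134). Cfap65, at 13.96, 15.3, 17.8 and 27.8 CPM in untreated WT and 10.9, 16.5, 13.6 and 12.8 CPM in untreated G93A mice, had a change of -0.44 ± 0.23 (adjusted p = 0.136). Spef2 was on the other side of 0, at 0.14 ± 0.17 (adjusted p = 0.548).

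Microtubule inner proteins held the other genes that rose. Cfap126, also called Flattop, was at 2.89, 5.32, 4.00 and 3.73 CPM in untreated WT and at 4.94, 6.79, 5.69 and 4.55 CPM in untreated G93A mice. With OKN-007 it was at 3.96, 3.44, 3.86 and 4.53 CPM in WT and at 6.20, 8.12, 5.09 and 5.54 CPM in G93A mice. WT mouse 2 was inside the untreated G93A range, whereas the OKN-007 groups did not overlap. Cfap126 rose by 0.51 ± 0.19 on the log2 scale when untreated (adjusted p = 0.0378) and by 0.73 ± 0.18 with OKN-007 (adjusted p = 0.00355). Efhb was a low transcript at 0.923, 0.814, 0.225 and 0.755 CPM in OKN-007 WT and at 1.18, 1.90, 0.756 and 1.12 CPM in OKN-007 G93A mice. The groups overlapped, and its log2 change was 0.93 ± 0.35 (adjusted p = 0.0418), while in untreated mice it was -0.13 ± 0.36 (adjusted p = 0.813). Enkur, an adaptor protein of the doublets, was at 4.49, 4.85, 6.06 and 7.22 CPM in untreated WT and at 4.08, 5.47, 6.14 and 4.49 CPM in untreated G93A mice, which overlapped. Enkur, Tekt1, Cfap52 and Pifo had untreated changes between -0.19 and -0.04 and did not pass in either treatment.

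The genes without a place in these classes did not pass. Tppp3 was at 309, 410.3, 316 and 367 CPM in untreated WT and at 359, 341, 426 and 264 CPM in untreated G93A mice, which overlapped throughout, with changes of 0.03 ± 0.12 in untreated (adjusted p = 0.864) and 0.04 ± 0.12 in OKN-007 mice (adjusted p = 0.812). Tmem212, a membrane protein of ciliated cells, was at 0.495, 0.852, 0.389 and 0.556 CPM in untreated WT and at 0.187, 0.206, 0.488 and 0.325 CPM in untreated G93A mice. These values rest on few reads, and the change was -0.87 ± 0.39 in untreated (adjusted p = 0.0903) and 0.36 ± 0.38 in OKN-007 mice (adjusted p = 0.479).

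**Figure D3:**
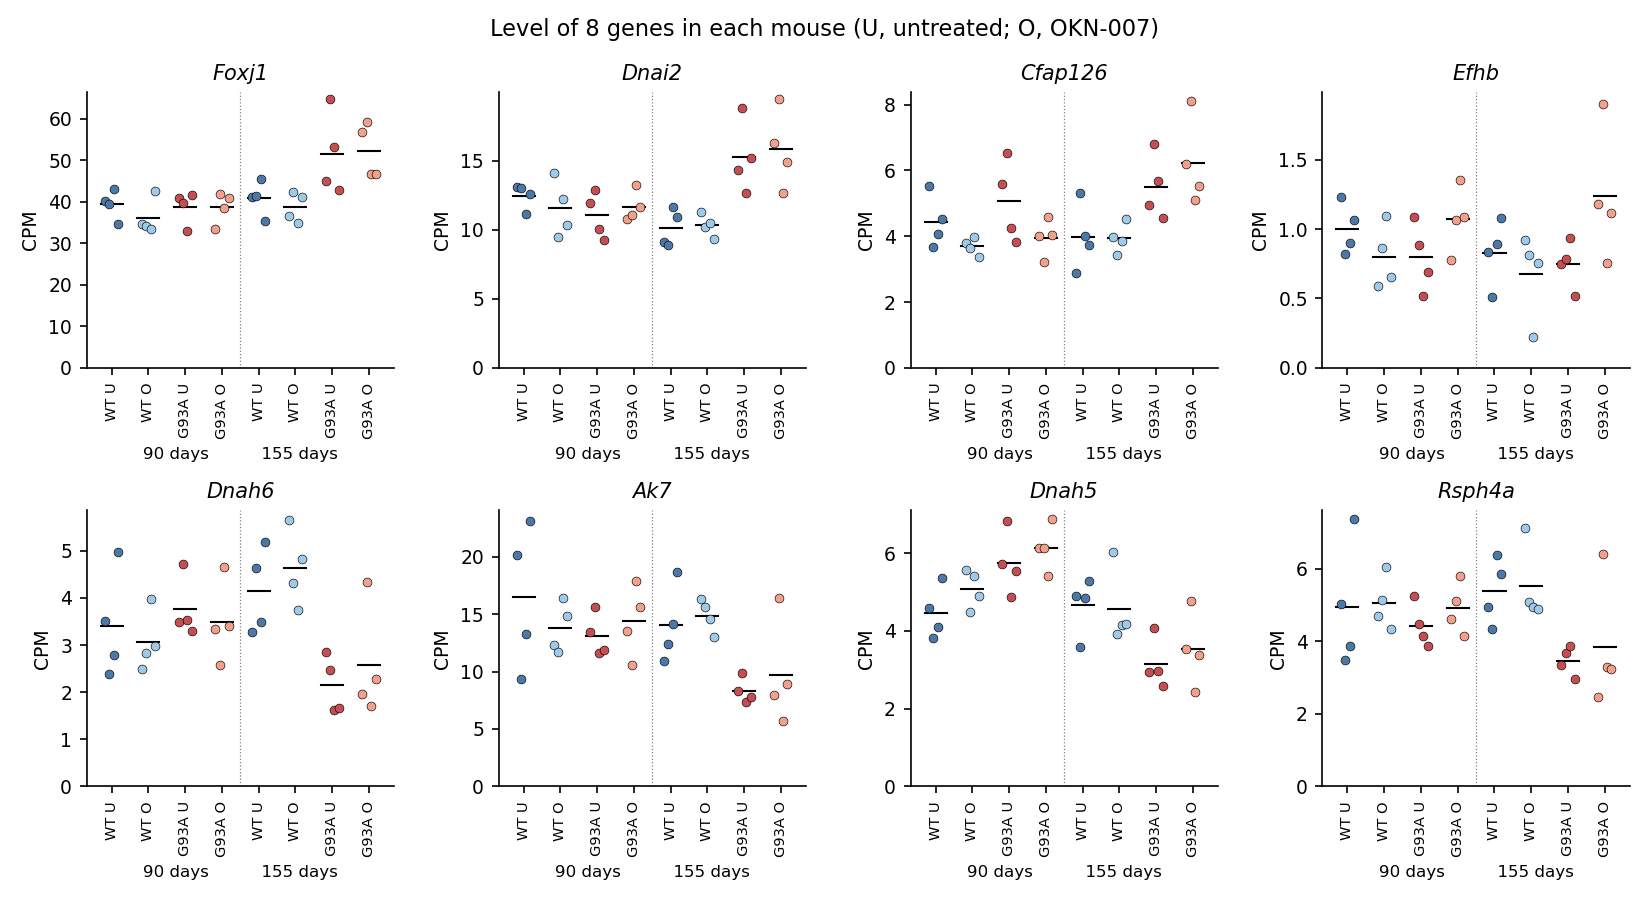
CPM (vertical axes, starting at 0) of 8 genes in each mouse, with untreated (U) and OKN-007 (O) mice of both genotypes at 90 days left and 155 days right of the dotted line. Points are mice and bars group means. Foxj1, Dnai2 and Cfap126 are higher in the 155-day G93A groups, whereas Dnah6, Ak7, Dnah5 and Rsph4a are lower in the untreated G93A mice at 155 days. With OKN-007 only Dnah6 of these 4 passed, and 1 G93A mouse reached the WT range or above.

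The calls, the lower ones most, moved with other features of the libraries. Caudal Hox genes, which mark the lumbar and sacral cord, had a mean log2 CPM of 1.54 ± 0.91 in untreated WT and -1.11 ± 1.59 in untreated G93A mice at 155 days, and of 2.21 ± 0.26 and 0.13 ± 1.37 with OKN-007 (SD, n = 4). Of 9 caudal Hox genes tested 5 were lower in untreated and 6 in OKN-007 G93A mice, with medians of -1.48 and -1.95, and Hoxc11 changed by -2.77 ± 0.82 (adjusted p = 0.0116) in untreated mice. With the caudal Hox mean as a covariate, 1 member was higher and 0 were lower in untreated mice (median -0.08, against -0.31 without it), and with OKN-007 3 were higher and 0 lower (median -0.10). The share of all genes called is not given here for this refit or for those below. Their counts therefore cannot be set against a background. At an adjusted p of 0.0315 and 0.00640 Dnai2 passed in both, and Cfap126 (0.0166) and Foxj1 (0.0351) passed with OKN-007. Foxj1 and Cfap126 no longer passed in untreated mice, nor did Efhb with OKN-007. The changes that no longer passed were smaller or had larger errors, and all kept their sign. In untreated mice Dnah6 was at -0.73 ± 0.41, Dnah5 at -0.60 ± 0.29, Dnah9 at -0.39 ± 0.25, Ak7 at -0.41 ± 0.32 and Rsph4a at -0.23 ± 0.31, and with OKN-007 Dnah6 was at -0.67 ± 0.33, Hydin at -0.67 ± 0.38 and Dnah9 at -0.48 ± 0.21. Genotype and the level of the cord piece cannot be told apart where both differ between the groups. Alb moved as well: without G93A mice 12 and 15, 3 genes were higher and 2 lower in untreated mice (median -0.23), and 4 were higher and 0 lower with OKN-007 (median -0.05). These libraries were picked after the data were seen, and the part of Alb in the result was not tested.

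Single mice also moved the counts, again given without the share of all genes called in each refit. In untreated mice the 8 calls became 3 without WT mouse 4, 5 without WT mouse 3, 5 without G93A mouse 10, 4 without mouse 11 and 5 without mouse 12. With OKN-007 the 7 calls became 16 (3 higher, 13 lower, median -0.43) without G93A mouse 14, and 4 without mouse 13, 15 or 16. Over 22 alternatives, leaving out each mouse included, Dnai2 passed in all 22 in both treatments, whereas in untreated mice Rsph4a missed in 14 and Dnah5 in 12, and Efhb missed in 12 with OKN-007. Mouse 14 also had raised Schwann cell markers (mean log2 CPM 2.74, against 0.02 to 0.55 in the other 3 mice of its group), and their part in its cilia gene levels was not tested.

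At 90 days the genotypes could not be told apart on these genes. None of the 31 genes passed in untreated, OKN-007 or averaged comparisons, by edgeR or DESeq2, and the background was 0.0%, 0.0% and 0.0265% of 18899 genes. Unadjusted p was under 0.05 for 1, 1 and 3 genes. The medians were 0.01, 0.09 and 0.04. Dnah5 had the smallest adjusted p of the averaged comparison, with a log2 change of 0.33 ± 0.10 (adjusted p = 0.432). It was at 4.58, 3.83, 4.09 and 5.35 CPM in untreated WT and at 5.72, 6.82, 4.86 and 5.55 CPM in untreated G93A mice of 90 days. These groups overlapped, and the G93A values lay toward the upper side, opposite to 155 days.

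OKN-007 moved none of the genes by the test. In G93A and in WT mice, at 155 and at 90 days, 0 of 31 genes passed, against backgrounds of 0.0%, 0.0%, 0.0% and 0.0%, by edgeR or DESeq2. Unadjusted p was under 0.05 for 1 gene in each of the G93A comparisons, which was Efhb at 155 days (log2 change 0.74 ± 0.35, adjusted p = 0.9996) and Hydin at 90 days (-0.58 ± 0.27, adjusted p = 0.837), and for 0 genes in WT mice. Medians were 0.15 in G93A and 0.01 in WT mice at 155 days, and 0.06 and -0.10 at 90 days. The caudal Hox mean was lower with OKN-007 at 90 days, with wide spreads, and 0 of 8 caudal Hox genes tested passed in either genotype. It was 0.769 ± 1.337 in untreated and -0.84 ± 1.038 in OKN-007 WT mice, and 0.9 ± 0.385 and -0.704 ± 1.977 in G93A mice (SD, n = 4). With this mean as covariate, 0 members were higher and 0 lower with OKN-007 at 90 days in either genotype. In G93A mice of 155 days the caudal Hox mean was -1.11 ± 1.59 when untreated and 0.13 ± 1.37 with OKN-007. There the covariate moved the median of the members from 0.15 to 0.07, with 0 higher and 0 lower. Interaction of genotype and treatment passed for 0 genes at 155 and at 90 days (backgrounds 0.0% and 0.0%), with 1 and 0 genes at an unadjusted p under 0.05. Thus a gene that passed in 1 treatment and missed in the other, such as Ak7 or Efhb, was not shown to differ between treatments. These comparisons share mice with the genotype comparisons.

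Age was compared within each group over all 32 mice, with 19829 genes tested. In untreated WT mice 0 of 31 genes passed (background 24.9% in either direction, 3 genes at an unadjusted p under 0.05), and in OKN-007 WT mice only Tppp3 passed, as lower, with 0 higher (backgrounds 17.8% higher and 13.5% lower). Tppp3 was at 495, 449, 440 and 419 CPM at 90 days and 321, 296, 364 and 304 CPM at 155 days in OKN-007 WT mice, without overlap (log2 change -0.50 ± 0.12, adjusted p = 0.00226). In untreated G93A mice 2 genes were higher and 6 lower at 155 days (backgrounds 21.0% and 12.8%, median -0.34), and in OKN-007 G93A mice 3 were higher and 3 lower (backgrounds 19.8% and 13.1%, median -0.34). Foxj1 rose with age in both, by 0.42 ± 0.11 (adjusted p = 0.00363) and 0.47 ± 0.11 (adjusted p = 0.00130). Dnah5 fell in both, by 0.85 ± 0.18 (adjusted p = 0.00032) and 0.76 ± 0.17 (adjusted p = 0.000872) on the log2 scale. Without G93A mouse 14 of 155 days the 6 calls in OKN-007 G93A mice became 19 (2 higher, 17 lower, median -0.60), and with the caudal Hox mean as covariate the 8 and 6 calls became 4 and 10. Without Alb-high mouse 12 the 8 calls became 4. Mice of the 2 ages were different animals, and the labels name no processing batch. The caudal Hox mean also differed between the ages. At 90 and then 155 days it was 0.77 and 1.54 in untreated WT, and -0.84 and 2.21 in OKN-007 WT mice. It was 0.90 and -1.11 in untreated G93A, and -0.70 and 0.13 in OKN-007 G93A mice. Age and the level of the cord piece cannot be told apart where both differ.

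The difference between genotypes itself changed with age for 3 genes in untreated mice and 2 with OKN-007. The backgrounds in either direction were 21.2% and 23.0% of all genes. Dnai2 stood at 13.1, 13.04, 11.1 and 12.6 CPM in untreated WT and at 11.9, 12.9, 10.1 and 9.30 CPM in untreated G93A mice of 90 days, and the genotype difference grew by 0.77 ± 0.19 on the log2 scale (adjusted p = 0.00405). The same change with OKN-007 was 0.64 ± 0.19 (adjusted p = 0.0147). Dnah6 stood at 3.503, 2.38, 2.78 and 4.98 CPM in untreated WT and 3.499, 4.72, 3.53 and 3.31 CPM in untreated G93A mice of 90 days, with the groups overlapping. Its genotype difference changed by -1.09 ± 0.37 (adjusted p = 0.0323) in untreated and -0.99 ± 0.37 (adjusted p = 0.0470) in OKN-007 mice. For Dnah5 the change was -0.93 ± 0.25 in untreated mice (adjusted p = 0.00694). Without G93A mouse 14 of 155 days, 9 genes passed with OKN-007, all of them lower. With the caudal Hox mean as covariate, 1 gene was higher and 1 lower in untreated mice (median -0.05, against -0.24 without it). With OKN-007, 2 were higher and 0 lower (median -0.10, against -0.33), so Dnah6 no longer passed there. The share of all genes called in this refit is not given here. Of 9 caudal Hox genes, 2 in untreated and 3 in OKN-007 mice were lower by the same interaction test.

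Within groups the genes varied together. With the mean of each group removed, each gene was correlated over the 32 mice with the mean of the other 31, as a description without a test, since all values of a mouse share its library. Rsph1 (r = 0.93), Ak7 (0.92) and Cfap43 (0.91) followed the rest most closely, and 26 genes had r of at least 0.57. Foxj1 (0.14), Mia (0.20) and Tppp3 (0.02) did not follow. Dnai2 (0.61) and Cfap126 (0.67) thus moved with the other axoneme genes from mouse to mouse within groups, but against their median between genotypes. The mean of the 32 genes had r = 0.97 with 78 other motile cilia genes, and r = 0.79 with markers of neurons that contact the cerebrospinal fluid at the central canal. With the caudal Hox mean r was 0.37 (Spearman's rho 0.38, and r = 0.36 without the 2 mice farthest from the median), and with Alb it was -0.43 (rho -0.36, and -0.29 without 2).

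**Figure D4:**
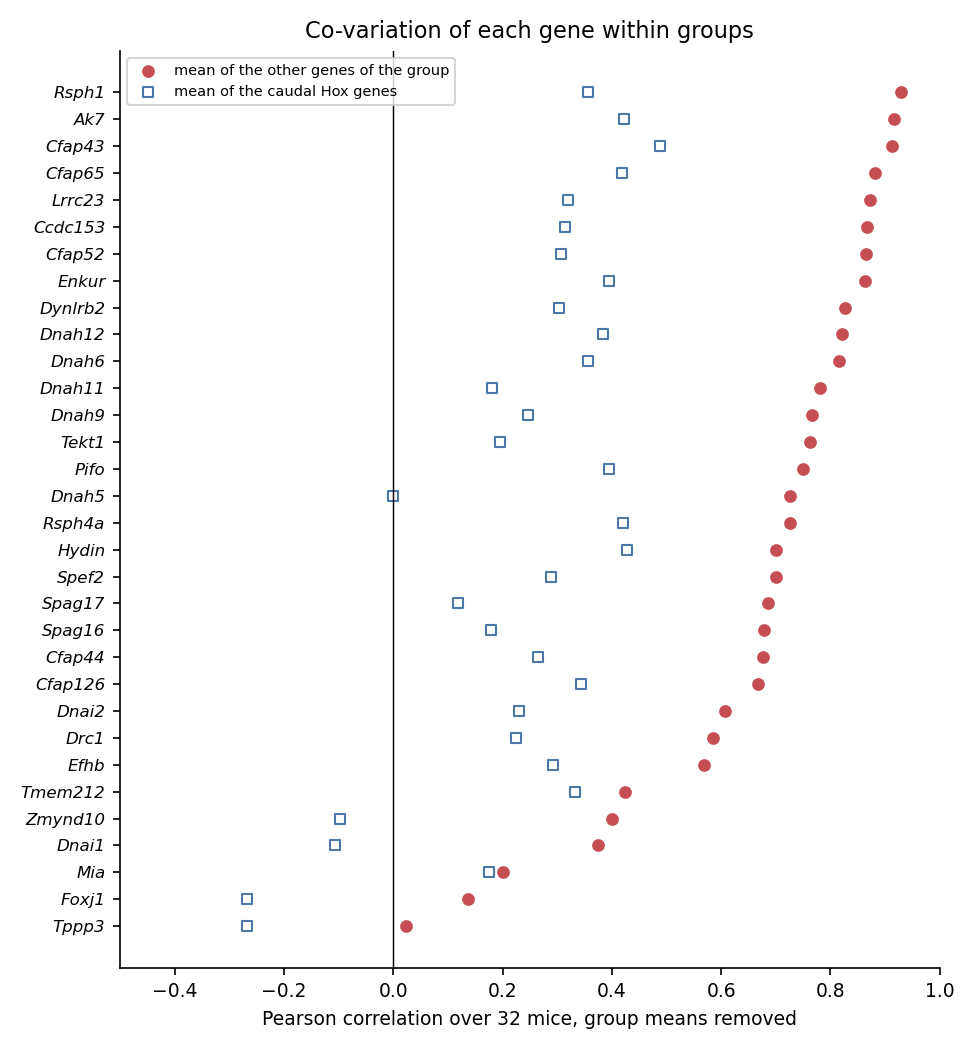
Pearson correlation (horizontal axis) of each of the 32 genes over 32 mice, with group means removed, with the mean of the other genes of the group (red) and with the mean of the caudal Hox genes (blue squares). In red 26 of the 32 genes lie at 0.57 or above, and Foxj1 and Tppp3 lie near 0 in red and below 0 in blue.

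Across 19798 genes outside the list, the 10 most alike to the mean of the 32 by this measure were Mlf1 (r = 0.89), Wdr66, Ccdc40, Drc7, Cfap45, Maats1, Ttc21a, Ccdc146, Fam216b and Vwa3a (0.86), of which 4 stand in the list of other motile cilia genes.

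**Figure D5:**
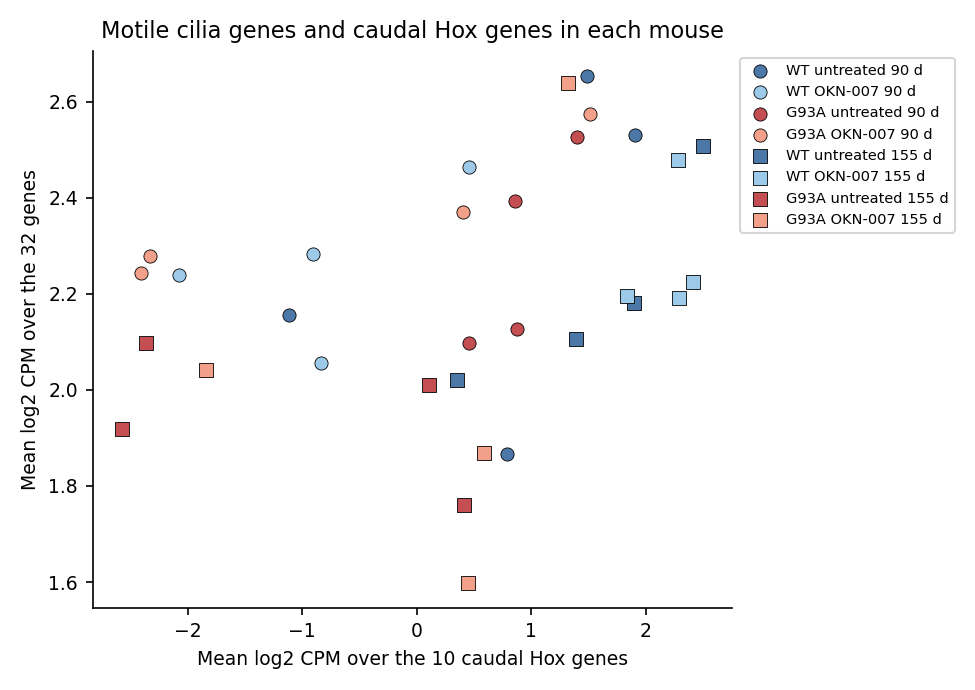
Mean log2 CPM over the 32 genes (vertical axis) against the mean over 10 caudal Hox genes (horizontal axis) in each mouse, by group (circles 90 days, squares 155 days). The 155-day WT mice lie at the right, from 0.35 to 2.50 on the Hox axis, and the 155-day G93A mice from -2.58 to 1.33.

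Other parts of the pathway were described by the same counts, in untreated and then OKN-007 mice at 155 days. The shares of all genes were 21.3% higher and 18.2% lower, and then 23.3% and 18.2%, and are the background of each list. Of 78 other motile cilia genes 3 were higher and 15 lower (median -0.26), and then 4 and 8 (median -0.17), so that the lower counts were near or below the background and the higher counts below it. Spag1, an assembly factor of dynein arms, changed by -0.28 ± 0.09 (adjusted p = 0.0155) in untreated mice, while the dynein light chain gene Dnal1 was at -0.12 ± 0.08 (adjusted p = 0.257). Among 9 regulators of multiciliated cells 2 were higher and 0 lower (median -0.21), and then 2 higher and 1 lower (median 0.15). E2f5 rose by 0.35 ± 0.09 (adjusted p = 0.00538) and by 0.57 ± 0.09 (adjusted p = 7.23e-05), and Rfx2 was at 0.50 ± 0.22 (adjusted p = 0.0811) and rose by 1.001 ± 0.22 (adjusted p = 0.00120). In intraflagellar transport and the primary cilium, carried by most cells of the cord, 4 of 32 genes were higher and 11 lower, and then 5 and 6, with medians of -0.07 and -0.10. Kif3a, a motor of this transport that also works in axons, changed by -0.34 ± 0.09 (adjusted p = 0.00427).

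Ependymal genes listed as non-ciliary did not share the lean. Whether every gene of this list lies outside the cilium was not checked. Of 10 tested, 5 were higher and 2 lower in each treatment, with medians of 0.61 and 0.66. Tm4sf1, also known from endothelium, rose by 2.12 ± 0.18 (adjusted p = 2.06e-08) in untreated mice, Rarres2, the precursor of chemerin, by 1.62 ± 0.20 (adjusted p = 3.37e-06) and Nnat by 0.45 ± 0.17 (adjusted p = 0.0432). Cd24a, a surface marker of ependymal and immature neural cells, changed by -0.75 ± 0.10 (adjusted p = 8e-06). Some of these genes are used by other cell types, and the part of those cells was not tested. Among the 6 markers of neurons that contact the cerebrospinal fluid, 0 were higher and 2 lower in untreated mice, and then 1 and 2. Pkd2l1, their channel gene, changed by -0.73 ± 0.13 (adjusted p = 0.000269). Markers of other cells of the cord moved with the genotype as well. Astrocyte markers were higher for 7 of 8 genes in untreated (median 0.69) and 6 of 8 in OKN-007 mice (0.68), and microglia markers for 8 of 8 in both (2.18 and 2.38). Neuron markers were lower for 5 of 5 in both (-0.57 and -0.66), and motor neuron markers for 5 and then 6 of 6 (-0.65 and -1.12). The part of these cells in the levels of the motile cilia genes was not tested.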

How the data were processed

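RNA of 32 spinal cords was prepared with the TruSeq Stranded mRNA kit and sequenced on an Illumina NextSeq. Per the study's methods, the authors used Trimmomatic for trimming and STAR for alignment to GRCm38, and counted reads with HTSeq on GENCODE genes. The submitters' processing notes name featureCounts, GRCm39 and mm39 instead, and 1306 of the identifiers are newer than GENCODE M21, so the annotation behind the table is not settled. The deposited values are raw read counts per gene, not normalized. All columns belong to the 32 mice. Symbols were paired for 96.9% of 42524 genes with GENCODE M21 (GRCm38), which also gave positions.

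Totals ranged from 19701722 to 30138257 counts (median 26658755). Counts were tested with edgeR 4.0.16 (R 4.3.3, limma 3.58.1): filterByExpr, TMM factors, and the quasi-likelihood test on the 16 mice of an age in 4 groups, or on all 32 mice for comparisons with age, adjusted by Benjamini-Hochberg over all genes at 0.05. Standard errors came from the F statistic. Levels are TMM-scaled CPM, and log2 CPM used a prior count of 2. The fit was tested on simulated data. The labels do not say more of how mice were chosen, and p-values cover the spread between these mice. Alternatives were DESeq2 1.42.0, RLE factors, no filter, the caudal Hox mean as covariate, all 32 mice in one fit, each mouse left out, a prior count of 0.5, 2 libraries high in Alb left out (chosen after seeing the data), and the sample number as a block across ages. Given mouse by mouse were Foxj1, the 2 members of each role with the highest mean CPM, the members past the threshold with the 3 largest and 3 smallest log2 fold changes of a genotype comparison, and any past it in a treatment or interaction test. From other lists at most 4 genes were named, by highest mean CPM. The members and all lists were chosen with earlier results of these data known.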

Additional observations from a re-analysis of the deposited data

Results flagged for a closer look

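In groups of 4 mice, 22 measures were examined for 1 mouse far from the other 3, which made 176 groups. There were 10 such cases, some of them in the same mouse, and chance alone marks about 8.8 (1 in 20 groups). The measures of a mouse vary together, so the cases are not independent. Mouse 5 of the OKN-007 WT group at 155 days stood above the rest in 4 measures: the mean log2 CPM of the 32 genes (2.478, next 2.225), Rsph4a (7.115 CPM, next 5.067), Dnah5 (6.038, next 4.171) and Lrrc23 (9.077, next 6.868). Mouse 14 of the OKN-007 G93A group at 155 days stood above in Lrrc23 (9.234 CPM, next 4.445) and Dnai1 (5.461, next 5.098). In untreated WT mice, mouse 4 at 155 days was high in Hydin (4.216 CPM, next 3.005), and mouse 2 at 90 days was low in Zmynd10 (1.857, next 2.758). Mouse 8 of the OKN-007 WT group at 90 days was high in Foxj1 (42.62 CPM, next 34.61), and mouse 10 of the untreated G93A group at 90 days in Dnah6 (4.716, next 3.529).

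The genotype difference changed between ages by the interaction test for Dnai2 (0.769 on the log2 scale in untreated and 0.64 in OKN-007 mice), for Dnah6 (-1.089 and -0.994) and for Dnah5 in untreated mice (-0.93). The mice of the 2 ages were different animals. With the caudal Hox mean as covariate, 1 gene was lower by this test in untreated mice and 0 with OKN-007.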

How the results depend on the processing

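None of the 8 untreated and 7 OKN-007 gene changes past the threshold at 155 days changed sign under any alternative run. The balance of higher and lower calls did turn: with the caudal Hox mean as covariate it went from 3 and 5 to 1 and 0 (untreated), from 4 and 3 to 3 and 0 (OKN-007) and from 3 and 10 to 4 and 0 (averaged), and without G93A mouse 14 from 4 and 3 to 3 and 13. The median of the genes for OKN-007 against untreated in G93A mice at 155 days ran from -0.113 to 0.272 when 1 mouse was left out. The RLE factors, DESeq2, no filter and the fit of all 32 mice left the counts of the 155-day genotype comparisons within 1.5 times the reported ones (8 to 12 calls in untreated, 7 to 9 with OKN-007, 14 to 15 averaged). With the caudal Hox mean as covariate, calls were 1 in untreated, 3 with OKN-007 and 4 averaged at 155 days. With age they were 1 in untreated WT, 4 in untreated G93A and 10 in OKN-007 G93A mice. For age by genotype, 1 was higher and 1 lower in untreated mice, and 2 were higher and 0 lower with OKN-007. Without the 2 libraries highest in Alb, chosen after seeing the data, they were 5 in untreated, 4 with OKN-007 and 4 with age in untreated G93A mice. Leaving out 1 mouse in turn gave 3 to 11 calls in untreated, 4 to 16 with OKN-007 and 11 to 18 averaged at 155 days. With age it gave 0 to 1 in untreated WT (1 without 155-day mouse 2 or 4 or 90-day mouse 2), 1 to 2 in OKN-007 WT (2 without 155-day G93A mouse 14, or 90-day mouse 7, 8 or 11), 3 to 10 in untreated G93A (5 without 155-day mouse 11, 4 without mouse 12, 5 without 90-day mouse 9, 3 without mouse 10) and 5 to 19 in OKN-007 G93A mice (19 without mouse 14). The age by genotype count was 2 to 3 in untreated mice and 0 to 9 with OKN-007, where it was 9 without G93A mouse 14 of 155 days, 0 without WT mouse 5 of 90 days and 1 without any of 15 other mice. The 90-day genotype, OKN-007 and genotype by treatment counts stayed at 0. The shares of all genes called in these runs are not given here, and the cause of these moves was not tested.

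Sample numbers 1 to 16 recur at both ages, but same-numbered mice were different animals and their deviations correlated by only -0.215 to 0.133, so the numbers do not pair them. With the number as a replicate block, calls with age were 2 in OKN-007 WT mice (1 without it), 0 in untreated WT, 8 in untreated G93A and 6 in OKN-007 G93A mice, and age by genotype calls were 3 in each treatment. No paired analysis within an age was possible because the groups share no number. The size of change that 4 mice a group would miss at the level of these genes was not measured.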
